A study of Trachemys scripta with 24 samples.

Results

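Plasma collected after gonadectomy from female pond sliders (Trachemys scripta) was compared with plasma collected before it, by sequencing its small RNA. The 16 libraries of T1 (2.5 h after surgery) and T2 (36 h after surgery) were pooled and set against the 8 libraries of T0 (24 h before surgery). All 24 libraries of the series took part, by the time point in their labels, and no measured value had a part in the choice. The same 8 mature turtles gave plasma at each time point, so the 16 postoperative libraries are not 16 animals. The labels do not name the turtle, libraries were therefore not paired, and p-values treat them as independent. The turtles fasted before surgery and were anaesthetised with dexmedetomidine, ketamine, midazolam and alfaxalone, reversed with atipamezole and flumazenil, and no turtle had anaesthesia without surgery. Surgery, anaesthesia, the drugs, fasting and the passage of time therefore cannot be told apart. Blood came from the cervical sinus into EDTA.

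MicroRNAs (miRNAs) are short RNAs cut from both arms (5p and 3p) of a hairpin precursor, and in cells they repress messenger RNAs with matching sites. Cells also release them, in vesicles or bound to proteins, which protect them from the RNases of plasma. Several families are made mainly in 1 tissue, such as miR-122 in liver, so that plasma levels have been used as a readout of tissue injury in mammals.

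The deposited counts of reads on painted turtle (Chrysemys picta, prefix cpi) entries were used, each entry once. Of 528 cpi entries, 198 passed the filter on low counts and were tested. These 198 held 99.5% of the cpi counts. Totals on cpi entries ran from 41203 to 312589 at T0, from 34519 to 227789 at T1 and from 5837 to 515184 at T2. The lowest total was that of T2 replicate t39, where 1 count equals 136 CPM, against a median of 9.30 CPM for 1 count at T0. CPM here are counts brought to a common total over the tested cpi entries and scaled by edgeR's TMM factors. These factors ran from 0.696 (t32) to 1.28 (t39), so a CPM is a relative level and not an exact share of the miRNA counts. A larger release of 1 miRNA and a smaller release of the others cannot be told apart.

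No difference between the periods was detected in 4 measures of the libraries themselves. Log10 total count (−0.03 after against before), number of cpi entries with a count (−8.69), share of the 5 most abundant entries (2.43 percentage points) and share of counts on the usual guide arm (0.10 percentage points) gave p = 0.858, 0.728, 0.371 and 0.873 by two-sided exact permutation tests over 735471 assignments. Adjusted over these 4 measures, each p was 0.873. With so few libraries and totals that varied widely within each time point, these tests cannot show that the periods were alike. The share of counts under the usual guide arm's name averaged only 8.33% at T0 and 8.43% after surgery. Most hairpins with a well known guide arm held more counts under the other arm's name. This share therefore cannot be read as use of the guide arm. Red cell miRNAs (miR-144 and miR-451, 2 of 4 entries tested) summed to 9054 to 48748 CPM at T0, 6046 to 96529 at T1 and 9336 to 61132 at T2, so every library held them. Their part in the results below was not tested.

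Arm names deserve a caution. Among 125 hairpins with at least 100 counts and a well known guide arm, 113 carried at least as many counts under the other arm's name. One of these, let-7a-4, was a tie. The median share of the larger arm was 97.0%. Some arms carry a miRBase mark in the deposited names. The other arm held at least as many in 111 of 118 hairpins with no marked arm and in 2 of 3 with 1 marked arm. Those 2 were let-7a-4, a tie at 338 counts on each arm, and let-7b, at 46955 against 46942. It did so in 0 of 4 with both arms marked, all of let-7. Whether arm names are exchanged was not tested. Names are given as deposited, and what is said of a miRNA's role refers to its hairpin.

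**Figure D1:**
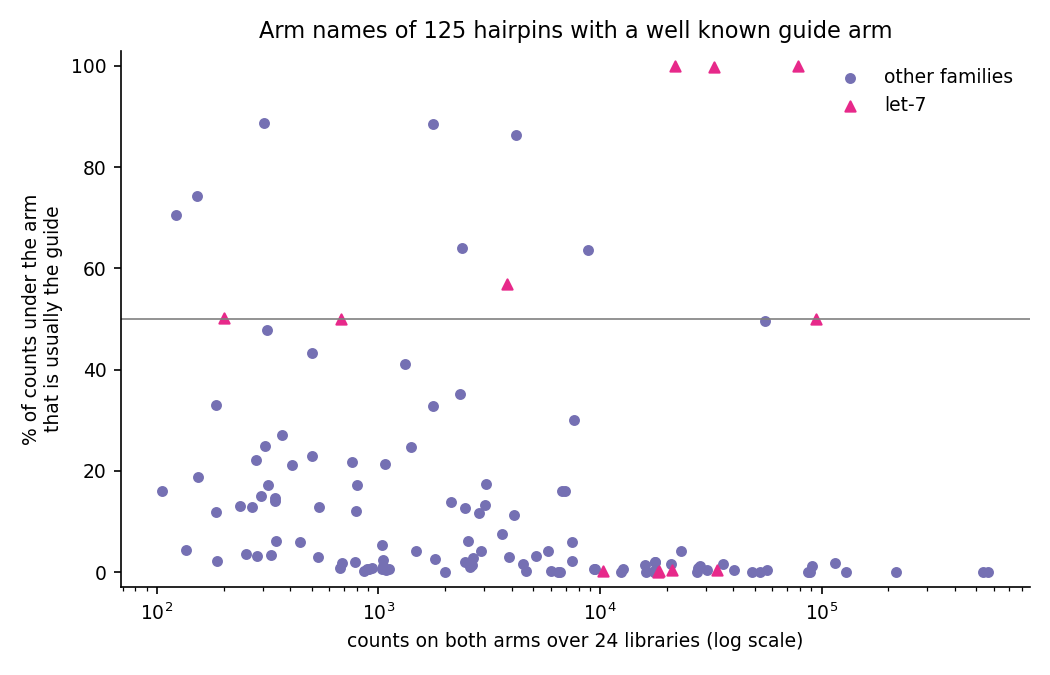
Share of a hairpin's counts under the arm name that is usually the guide (y axis, %) against its counts on both arms over 24 libraries (x axis, log scale), 1 point per hairpin, with let-7 as triangles. Of 125 hairpins, 113 lie below or on the line at 50%, with let-7a-4 on it.

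The pooled comparison called 1 miRNA as changed. miR-92b-5p rose 4.93-fold after surgery, by 2.30 on the log2 scale (SE 0.50), and no entry was called lower. Entries were called where edgeR's quasi-likelihood test gave a Benjamini-Hochberg adjusted p no larger than 0.1 and a log2 fold change of 1 or more in either direction. The 1 called entry is 0.505% of the 198 tested, and its adjusted p was 0.0196. With the same fold limit and an unadjusted p up to 0.05, 6 entries were higher (3.03%) and 1 was lower (0.505%). Among all entries tested, the pooled log2 fold change was above 0 in 113 and below 0 in 85, with a median of 0.09 and a median SE of 0.39. For 81 entries the 95% interval lay within 1 log2 unit of no change.

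miR-92b belongs to the miR-25/miR-92 family, whose members share a seed and in mammals promote cell growth. At T0 its 5p entry stood at 68.9, 107, 116, 178, 196, 201, 244 and 247 CPM in t31, t43, t37, t49, t52, t34, t40 and t46. At T1 it stood at 211, 354, 423, 442, 578, 659.8, 742 and 3181 CPM in t53, t38, t44, t35, t50, t41, t47 and t32. At T2 it stood at 136, 283, 319.8, 355, 801, 886, 1296 and 2251 CPM in t39, t42, t48, t54, t45, t51, t36 and t33. All but T2 replicate t39 lay above the T0 median, and all but t39 and T1 replicate t53 lay above every T0 library. The value of t39 rests on 1 count. No other entry had even 10 of the 16 postoperative libraries above every T0 library, and this 1 entry is 0.505% of those tested.

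The rise was of like size at both times. Against the same T0 libraries, miR-92b-5p was higher by 2.32 (SE 0.55, adjusted p = 0.0565, edgeR) at T1 and by 2.29 (SE 0.55, adjusted p = 0.0631, edgeR) at T2, the only entry called at either time (0.505% each). With an unadjusted p up to 0.05 and the same fold limit, T1 had 11 entries higher (5.56%) and 1 lower (0.505%), and T2 had 5 higher (2.53%) and 3 lower (1.52%). T2 differed from T1 by −0.02 on the log2 scale, with a 95% interval of −1.08 to 1.04. That interval still allows a change of about 1 log2 unit between the times. The call held in each of the 24 fits that left out 1 library, with log2 fold changes between 1.96 (without T1 replicate t32) and 2.43 (without T0 replicate t52) and adjusted p between 0.00913 and 0.0580. The calls at single times were less stable. That at T1 was lost in 5 of the 24 fits (without T0 replicates t31, t34, t37 or t43, or T1 replicate t32), and that at T2 in 9 (without T0 replicates t31, t34, t37, t43 or t49, or T2 replicates t33, t36, t45 or t51). With the entries of every species in the fit, the call at T2 was lost as well, as edgeR called 0 entries there.

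**Figure D2:**
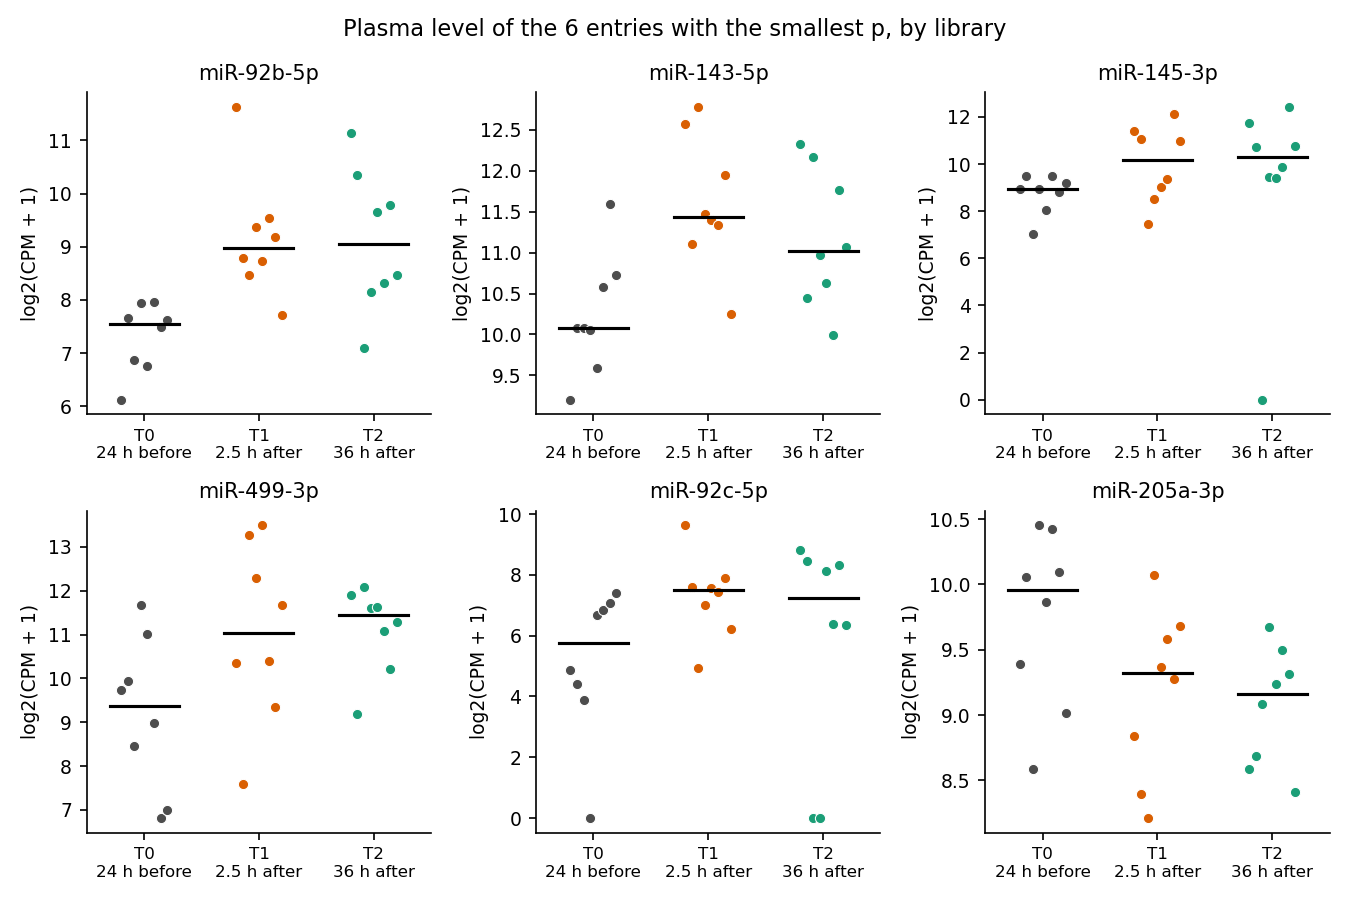
Level of the 6 entries with the smallest p (y axis, log2(CPM + 1)) at T0, T1 and T2, 1 point per library, 8 libraries per time point, with a bar at the median. For miR-92b-5p, 14 of 16 postoperative points lie above every T0 point, while the other panels overlap more.

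The closest relatives of miR-92b did not share one pattern. miR-92c-5p, of the same family, ran from 0 to 168 CPM at T0 (median 64.5), from 29.5 to 793 at T1 (median 179) and from 0 to 452 at T2 (median 179). Its log2 fold change was 1.59 (SE 0.63, adjusted p = 0.610, edgeR), with 9 of 16 postoperative libraries above every T0 library. The 5 postoperative libraries highest for miR-92b-5p (t32, t33, t36, t51 and t45) were in the same order the 5 highest for miR-92c-5p, and whether the entries share reads was not tested.

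The abundant miR-92a, cut from the miR-17-92 cluster and its paralog, stood lower in most postoperative libraries. The mean of miR-92a-1-5p was 17974 ± 2893 CPM (SD, n = 8) before surgery, 13306 ± 2860.0 CPM 2.5 h after it and 15130.2 ± 3943 CPM 36 h after it. Its log2 fold change was −0.34 (SE 0.16, adjusted p = 0.610, edgeR), and 14 of 16 postoperative libraries lay below the T0 median. miR-92a-2-5p, from the second hairpin, gave −0.34 as well (SE 0.16), with 15 of 16 below. Set against both miR-92a entries within each library, miR-92b-5p had 0.272 to 0.813 counts per 100 at T0 (median 0.569), 0.707 to 11.3 at T1 (median 2.67) and 0.916 to 10.02 at T2 (median 1.99). In 15 of 16 postoperative libraries this ratio lay above its highest T0 value, and the ratio does not depend on the scaling between libraries. It sets the called entry against entries already seen to stand lower after surgery, which by itself widens the gap. The 15 of 16 is therefore not independent evidence of the rise, and no other ratio is given for comparison.

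Counts named miR-92b-5p stood almost wholly under the painted turtle entry, and which other entries match the same reads was not tested. Over all libraries this entry held 2371, made up of 178, 819 and 1374 counts at T0, T1 and T2. The other arm of that hairpin held 156. The alligator (ami) miR-92b entries behaved differently: ami miR-92b-3p held 207, 173 and 327 counts at T0, T1 and T2, with a log2 fold change of 0.48 (SE 0.58, adjusted p = 0.829, edgeR over the entries of every species), and ami miR-92b-5p held 11 counts in all. By contrast miR-143-5p was counted almost alike under its 4 species, at 7235 to 7283 counts.

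miR-143 and miR-145 share 1 hairpin cluster that smooth muscle of vessels and viscera expresses strongly. All 3 tested entries of the cluster had positive log2 fold changes with an unadjusted p of at most 0.05, and 0 passed the adjusted limits. The median of the 3 was 1.20 on the log2 scale, against 0.09 over all entries tested, where 14 of 198 (7.07%) had such a p in either direction. Summed over the cluster, 16 of 16 postoperative libraries lay above the T0 median, 8 at each time, and 4 at each time above every T0 library.

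miR-143-5p ran from 589 to 3095 CPM at T0 (median 1080.3), from 1217 to 7055 at T1 (median 2774) and from 1019 to 5158 at T2 (median 2078). All but T2 replicate t48 lay above the T0 median, but only 6 of 16 above every T0 library, since T0 replicate t49 stood high. The log2 fold change was 1.20 (SE 0.36, adjusted p = 0.20, edgeR), 1.40 at T1 and 0.96 at T2. T2 differed from T1 by −0.43 (95% interval −1.24 to 0.37). Without t49 the entry was called, at 1.42 (adjusted p = 0.0506, edgeR).

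miR-145-3p ran from 129.5 to 722 CPM at T0 (median 487), from 177 to 4536 at T1 (median 1336) and from 0 to 5553 at T2 (median 1326). T1 replicate t50 and T2 replicate t51 were highest and T2 replicate t39, at 0, lowest, with 9 of 16 postoperative libraries above every T0 library. The log2 fold change was 1.88 (SE 0.58, adjusted p = 0.20, edgeR), with 1.79 at T1, 1.97 at T2 and 0.18 between them (95% interval −1.07 to 1.43). It was called without t39 (adjusted p = 0.0901, edgeR) and by DESeq2 (adjusted p = 0.0429). miR-145-5p gave 0.95 (SE 0.42, adjusted p = 0.610, edgeR), with 0.85 at T1 and 1.04 at T2.

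miR-126, made in endothelium, lies in mammals within the gene of EGFL7, an epidermal growth factor-like domain protein. miR-126-5p had a log2 fold change of 0.73 (SE 0.38, adjusted p = 0.610, edgeR), 1.03 at T1 and 0.36 at T2, with 10 of 16 postoperative libraries above the T0 median. The other 3 tested entries of the vascular list (miR-126-3p, miR-221-5p and miR-222a-5p) were between −0.30 and −0.04.

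Striated muscle miRNAs differed in how far a few libraries set their values. miR-499, which in mammals lies within a myosin heavy chain gene of heart and slow muscle, ran at its 3p entry from 111 to 3262 CPM at T0 (median 678), from 192.05 to 11574 at T1 (median 2316) and from 583 to 4339 at T2 (median 2805). In 13 of 16 postoperative libraries it lay above the T0 median, and in 6 above every T0 library. The log2 fold change was 1.71 (SE 0.64, adjusted p = 0.610, edgeR), 2.01 at T1 and 1.33 at T2, with −0.68 between the times (95% interval −2.08 to 0.72). Leaving out 1 library gave 1.44 (without T1 replicate t44) to 2.09 (without T0 replicate t40). Without T0 replicates t46 and t49 and T1 replicate t44, which stood apart in miR-1, the log2 fold change was 1.11 (adjusted p = 0.790, edgeR). For miR-499-3p, t46 and t49 lay below the T0 median, at 507 and 111 CPM.

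miR-1 and miR-133, the main miRNAs of heart and skeletal muscle, pointed 2 ways at once. miR-1a-1-5p had a log2 fold change of −2.06 (SE 1.12, adjusted p = 0.610, edgeR), although 13 of 16 postoperative libraries lay above the T0 median of 131 CPM. T0 replicates t49 (39166 CPM) and t46 (12738 CPM) and T1 replicate t44 (19760 CPM) stood far above the other 21 libraries, none of which exceeded 1358 CPM. Without these 3 libraries the log2 fold change was 1.43 for miR-1a-1-5p (adjusted p = 0.612, edgeR), 1.81 for miR-1a-2-5p (adjusted p = 0.230, edgeR), 1.499 for miR-133a-1-5p (adjusted p = 0.547, edgeR) and 1.99 for miR-133a-2-5p (adjusted p = 0.116, edgeR). Without t44 alone both miR-1a entries were instead called lower, at −4.16 and −4.15 (adjusted p = 0.00913 each, edgeR). No direction is given for these entries.

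**Figure D3:**
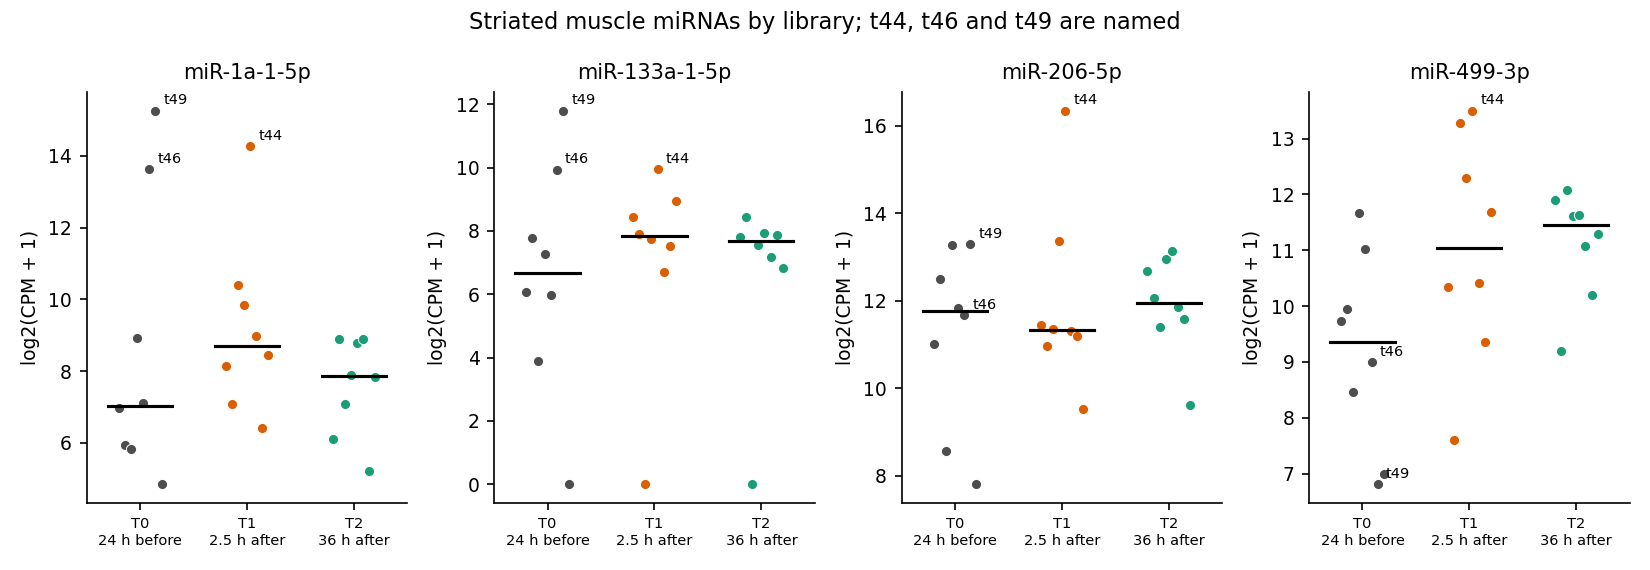
Level of 4 striated muscle miRNAs (y axis, log2(CPM + 1)) at T0, T1 and T2, 1 point per library, with a bar at the median and the names of T0 replicates t46 and t49 and T1 replicate t44. In miR-1a-1-5p these 3 libraries lie at 12738 CPM or more and all others at 1358 or less, and t44 stands highest in miR-206-5p.

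miR-206, the skeletal muscle member of the miR-1 family, was high in T1 replicate t44 too, at 82920.0 CPM. Its log2 fold change was 1.04 (SE 0.77, adjusted p = 0.718, edgeR), and 0.21 without the 3 libraries. Of the 20 cpi entries on the striated muscle list, 6 were tested, 2 had a positive and 4 a negative log2 fold change, and 0 were called. Their median of −1.25 rests on the same 3 libraries.

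The lowest p on the lower side was that of miR-205a-3p, of a family rich in stratified epithelium. It was the only 1 of the 6 tested entries of the epithelial list with a negative log2 fold change. Its level ran from 384 to 1402 CPM at T0 (median 998), from 295 to 1079 at T1 (median 639) and from 339 to 817 at T2 (median 573). In 15 of 16 postoperative libraries, all but T1 replicate t41, it lay below the T0 median. The groups overlapped, with 4 of 16 postoperative libraries below every T0 library. The log2 fold change was −0.64 (SE 0.26, adjusted p = 0.610, edgeR), −0.55 at T1 and −0.73 at T2, and −0.18 between the times (95% interval −0.83 to 0.47).

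miR-203, which restrains growth of skin progenitor cells in mice, stood on the other side. Median levels of miR-203-5p were 44.2, 174 and 87.5 CPM at T0, T1 and T2, and 14 of 16 postoperative libraries lay above the T0 median. Its log2 fold change was 1.18 (SE 0.55, adjusted p = 0.610, edgeR), made of 1.64 at T1 and 0.45 at T2. The difference between the times was −1.19 (95% interval −2.36 to −0.02, adjusted p = 0.759, edgeR), so its pooled value stands mainly for T1. In the fit over the entries of every species, cpi miR-203-5p gave 1.23 (adjusted p = 0.595, edgeR). The Anolis carolinensis, alligator and Ophiophagus hannah entries of miR-203-5p gave 1.65, 1.64 and 1.61 (adjusted p = 0.217 each, edgeR). These entries can count the same reads. At T1 miR-203-5p was called by limma voom, and with every species in the fit under at least 1 of them. The 4 tested miR-200a and miR-200b entries were between 0.03 and 0.24.

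Position against the T0 median was rarely so one-sided. At least 14 of 16 postoperative libraries lay above it in 8 entries (4.04%) and below it in 6 (3.03%). Those above were let-7c-1-3p, miR-125b-1-5p, miR-9-4-3p, miR-133a-2-5p, miR-1a-2-5p, miR-203-5p, miR-143-5p and miR-92b-5p. Of these, let-7c-1-3p (−0.03), miR-133a-2-5p (−1.25) and miR-1a-2-5p (−2.02) nevertheless had a negative pooled log2 fold change. Those below were miR-205a-3p, miR-181a-2-3p, miR-92a-1-5p, miR-92a-2-5p, miR-1677f-5p and let-7a-3-3p.

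The white cell list had 5 of 6 tested entries below 0, against 85 of 198 over all entries tested, and 4 of these 5 came from the miR-142 hairpins. Summed over the list, the median level was 14302, 9243 and 15794 CPM at T0, T1 and T2, so the median of the sum stood below that of T0 at T1 but not at T2. Of the 8 T2 libraries, 3 lay above every T0 library. miR-142 is made in all blood cell lineages of mammals, and its 4 entries, from 2 hairpins, had log2 fold changes of −1.07 (miR-142-1-3p, SE 0.51), −1.03 (miR-142-2-5p, SE 0.53), −0.76 (miR-142-1-5p, SE 0.44) and −0.50 (miR-142-2-3p, SE 0.26), each with an adjusted p of 0.610 by edgeR. miR-142-1-3p gave −1.08 at T1 and −1.06 at T2. It rests on 268, 108 and 100 counts at T0, T1 and T2, and without T0 replicate t37 it was −0.55. Without the same library miR-142-2-5p was −0.49. miR-223, of neutrophils and monocytes in mammals, gave 0.38 (SE 0.58) for its 5p and −0.02 (SE 0.19) for its 3p entry. Over the 6 tested entries of the list the median log2 fold change was −0.63, and 0 were called.

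Other entries with the smallest p on the lower side came from several families. miR-128, abundant in these libraries and rich in brain of mammals, gave −0.33 (miR-128-2-5p, SE 0.16, adjusted p = 0.610, edgeR) and −0.26 (miR-128-1-5p, SE 0.15, adjusted p = 0.610, edgeR). miR-128-2-5p had a mean of 17789 ± 1511 CPM (SD, n = 8) at T0 against 14165 ± 3504 (SD, n = 16) after surgery, and 9 of 16 postoperative libraries lay below every T0 library. At least 8 of 16 did so in 6 entries (3.03%), the others being miR-128-1-5p, miR-92a-1-5p, miR-92a-2-5p, miR-142-1-3p and miR-27a-5p. miR-181a-2-3p, of a family that tunes T cell signalling in mice, gave −0.55 (SE 0.23, adjusted p = 0.610, edgeR), −0.53 at T1 and −0.56 at T2, with a 95% interval of −0.60 to 0.55 between the times. Its median level was 909, 566 and 618 CPM at T0, T1 and T2. miR-1677f-5p, with medians of 590.4, 249 and 438 CPM, gave −0.58 (SE 0.32, adjusted p = 0.610, edgeR), −0.95 at T1 and −0.28 at T2.

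On the higher side, the remaining entries leaned to T1. miR-130b-5p gave 0.59 (SE 0.28, adjusted p = 0.610, edgeR), 0.76 at T1 and 0.38 at T2. miR-130b-3p, the other arm of that hairpin, gave 1.03 (SE 0.53, adjusted p = 0.610, edgeR), 1.28 at T1 and 0.71 at T2. miR-218, cut from introns of the Slit genes of axon guidance in mammals, gave 1.39 (miR-218-1-3p, SE 0.74, adjusted p = 0.610, edgeR) and 1.22 (miR-218-2-3p, SE 0.68, adjusted p = 0.610, edgeR), with 1.57 and 1.70 at T1 against 1.15 and 0.45 at T2. Both rest on few counts, 55 and 58 at T0.

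**Figure D4:**
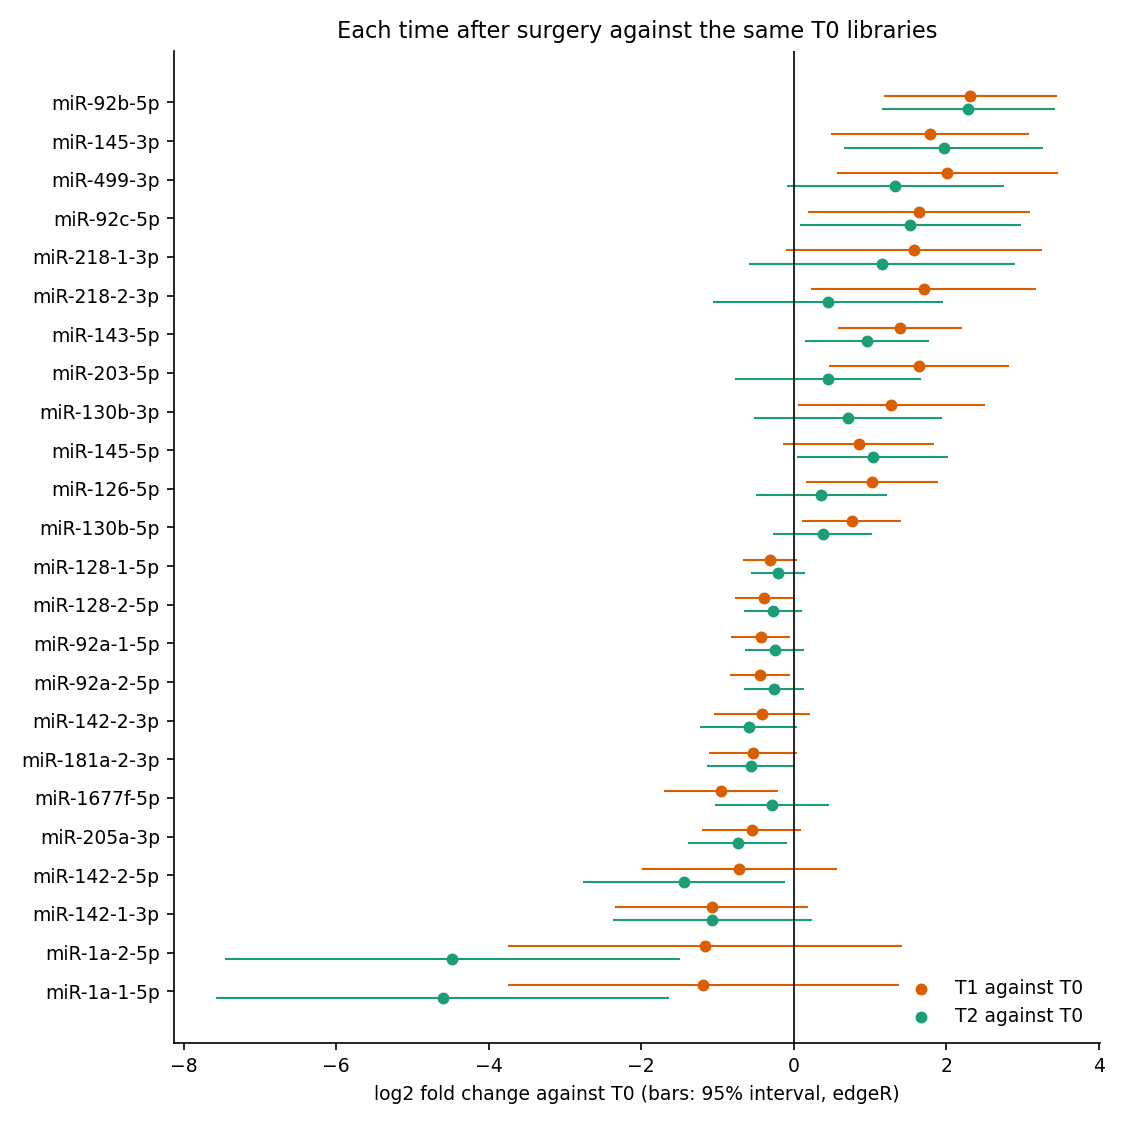
Log2 fold change of T1 and of T2 against the same 8 T0 libraries (x axis, points, with approximate 95% intervals from the edgeR fit as bars) for the 12 entries with the smallest pooled p on each side (y axis). The intervals of miR-92b-5p lie above 0 at both times, and those of both miR-1a entries reach below −7 at T2.

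No difference between the postoperative times passed the test. For T2 against T1, edgeR called 0 of 198 entries (smallest adjusted p 0.759), as did DESeq2, while with an unadjusted p up to 0.05 and the same fold limit edgeR had 7 entries lower (3.54%) and 1 higher (0.505%) at T2, and DESeq2 had 16. The 95% interval of this difference lay within 1 log2 unit of 0 in 58 of 198 entries, so for the other 140 these libraries leave a larger change between the times possible. miR-187-5p had the smallest p, at −1.62 (SE 0.60, adjusted p = 0.759, edgeR), with 1.31 at T1 and −0.32 at T2 against T0. The liver miRNA miR-122-3p gave −1.79 between the times (SE 0.80, adjusted p = 0.759, edgeR), from 1.14 at T1 and −0.66 at T2.

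The most abundant miRNAs, which set the make-up of turtle plasma, shifted little. miR-148a-5p had a mean of 144414 ± 38470.5 CPM (SD, n = 8) at T0 and 169921 ± 41661 (SD, n = 16) after surgery, a log2 fold change of 0.23 (SE 0.17, 95% interval −0.11 to 0.58). miR-99a-3p gave 0.29 (95% interval −0.12 to 0.69), miR-99b-3p 0.22 (95% interval −0.26 to 0.70) and miR-425-3p −0.24 (95% interval −0.65 to 0.18). miR-122-3p, made in hepatocytes, was less certain, at 0.51 (95% interval −1.01 to 2.02), with 8191 to 400859.9 CPM at T1 alone. It was 0.09 without T1 replicate t32 and 1.46 without T0 replicate t40. Leaving out 1 library gave 0.08 to 0.29 for miR-148a-5p, 0.17 to 0.37 for miR-99a-3p, 0.14 to 0.31 for miR-99b-3p and −0.30 to −0.14 for miR-425-3p.

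Read by family list, most medians lay near that of all entries tested (0.09 on the log2 scale). The let-7 family (14 entries tested) had a median of 0.03, with 8 entries above and 6 below 0. The list for the miR-17-92 clusters and paralogs (10 tested) had −0.12. It was filled by family number alone and so took in the called miR-92b-5p. Whether miR-92b lies in such a cluster was not examined. Liver (5 tested) had 0.11, inflammation (miR-21, miR-146 and miR-155, 6 tested) 0.11, epithelium (6 tested) 0.05, red cells (2 tested) −0.17 and miR-210, raised by hypoxia in mammals (2 tested), −0.19. miR-99 and miR-100 (4 tested) had 0.34 and miR-148 and miR-152 (4 tested) 0.35. The lists farthest from the median of all entries were smooth muscle at 1.20, neural at 1.22 and striated muscle at −1.25.

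**Figure D5:**
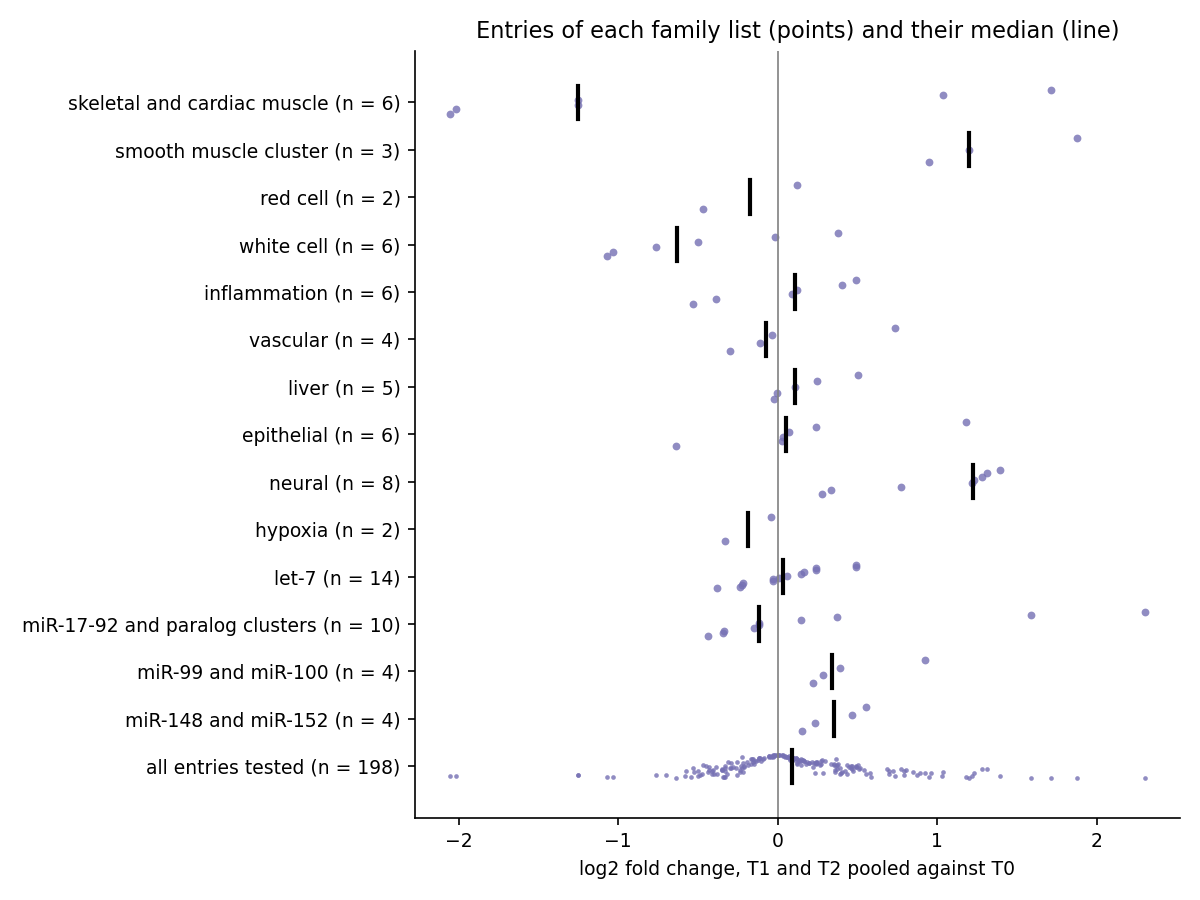
Pooled log2 fold change of each tested entry (x axis, points) by family list (y axis, with the number of entries), with a bar at the list's median and all 198 entries tested at the bottom. The smooth muscle entries all lie above 0, and the striated muscle entries lie on both sides.

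Of 14 miRNAs that the study names as changed, 11 have a cpi entry and 9 of these passed the filter. The study used DESeq2 over the entries of every species. It lists miR-145-3p, miR-92b-5p and miR-499-3p as changed at both times after surgery. Of these, only miR-92b-5p was called in the pooled edgeR comparison here. The miRNA it lists as lower, miR-138-1-3p, has no cpi entry. miR-125b-1-5p gave 0.85 (SE 0.64, adjusted p = 0.718, edgeR), 0.93 at T1 and 0.76 at T2, with 14 of 16 postoperative libraries above the T0 median. miR-187-5p gave 0.72 (SE 0.59, adjusted p = 0.718, edgeR). Without T0 replicate t40 they were 1.56 and 1.21, and without T1 replicate t32 miR-187-5p was 0.47. The other 7 (miR-499-3p, miR-203-5p, miR-218-2-3p, miR-145-3p, miR-143-5p, miR-92c-5p and miR-92b-5p) are described above. miR-29a-1-3p, with 6, 7 and 16 counts at T0, T1 and T2, and miR-196-2-3p, with 13, 44 and 45, did not pass it. This list was chosen by the study on these libraries and is not independent evidence of its direction. The study also measured some of these miRNAs by RT-qPCR, in the same turtles and in a further set. There miR-92b-5p was detected, but its change was not significant. miR-499-3p was higher at T1 and at T2 than at T0. miR-203-5p was lower at T2, opposite in sign to its sequencing value at T2 here, which was not called. The measures are unlike: RT-qPCR levels were set against a synthetic RNA added to the samples, while CPM are relative to the other miRNA counts. Whether this accounts for the difference in sign was not tested. The signals of miR-218-2-3p, miR-143-5p, miR-196-2-3p and miR-187-5p were too weak to be quantified.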

How the data were processed

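Per the labels and the study's methods, small RNA of EDTA plasma was sequenced. The authors ran docker4seq, in which Cutadapt clipped adapters, reads under 14 nt were discarded and BWA aligned the rest to the miRBase precursors of 4 saurian species. The deposited table holds raw counts per mature entry, in 3988 rows for 1994 entries, each in 2 rows with the same counts. A read can be counted under several entries, 2 cpi entries have identical counts, and arm names may be exchanged. The labels and the methods name different extraction kits, and which one was used was not settled. Genome coordinates and sequences of these miRNAs were not used here.

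For each entry 1 row was kept. edgeR 4.0.16 (R 4.3.3) filtered (filterByExpr), scaled (TMM) and tested the 198 cpi entries kept by its quasi-likelihood test: 16 libraries against 8 for the pooled comparison, and 3 time points in 1 model for the others. All values pair no libraries. Common dispersion was 0.462. The quasi-likelihood test gives no standard error. The SE given here is the absolute log2 fold change divided by the square root of the test's F statistic. It is approximate, and the 95% intervals rest on it. Plots add a pseudocount of 1. The test was checked on simulated counts, drawn independently for each library with a single dispersion. That check cannot show how the test behaves with repeated samples of the same turtles. Alternatives used DESeq2 1.42.0, limma 3.58.1, sva 3.50.0, other scalings, filters, rows and limits, and each library left out. Permutation tests used numpy 2.4.6, and scipy 1.17.1 adjusted their p-values.

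Members, lists and tests were chosen with earlier results of these data known. Named entries are those called, the 12 with the smallest p on each side, the 5 most abundant and those the study reports.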

Additional observations from a re-analysis of the deposited data

Results flagged for a closer look

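In a group of 8 libraries, the highest or lowest library was set apart where its gap to the nearest other, as a fraction of the group's range, exceeded Dixon's 95% critical value. Of 105 groups, 25 did so. The limit gives about 1 in 20 for independent normal values, but CPM were used unlogged and related entries are not independent. The 25 therefore cannot be read as an excess over chance. No cause was tested.

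The largest gaps were those of T1 replicate t44 in miR-1a-2-5p (0.947 of the range) and miR-1a-1-5p (0.935). T0 replicate t49 was highest in miR-1a-2-5p (0.680), miR-1a-1-5p (0.675) and miR-143-5p (0.560). T1 replicate t32 was highest in miR-92b-5p (0.821) and miR-92c-5p (0.728), and T2 replicate t33 in miR-145-5p (0.639).

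T0 replicate t40 was highest in miR-187-5p (0.813), miR-203-5p (0.736), miR-122-3p (0.715), miR-125b-1-5p (0.696) and the share of the 5 most abundant entries (0.593). miR-203-5p was also set apart in T1 replicate t38 (0.610) and T2 replicate t39 (0.643), the libraries that were highest in miR-218-1-3p as well (0.564 and 0.629). T2 replicate t39 was lowest in the number of entries with a count (0.546), and T2 replicate t42 highest in miR-218-2-3p (0.546).

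T0 replicate t37 was highest in miR-142-1-3p (0.666) and miR-142-2-5p (0.542) and lowest in miR-99a-3p (0.546). T1 replicate t53 was highest in miR-142-1-3p (0.589), T2 replicate t36 in miR-142-2-5p (0.661) and T1 replicate t47 in miR-181a-2-3p (0.561).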

How the results depend on the processing

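The pooled call of miR-92b-5p held under all 14 alternatives (log2 fold change 1.74 to 2.48, adjusted p 0.000174 to 0.0609) and in all 24 fits without 1 library. The number of pooled calls was 1 as reported, 2 by DESeq2 (adding miR-145-3p), 2 with no filter (adding miR-1788-3p, with 12 counts at T0 and 2 after), 7 at an unadjusted p, 17 by DESeq2 at an unadjusted p, and 2 without T0 replicates t46 and t49 and T1 replicate t44 (adding miR-143-5p). Leaving out 1 library gave 1 to 3 calls, with 2 without t39 or t49 and 3 without t44. For T1 against T0 (1 call) it was 3 by limma voom, 2 with every species, 12 at an unadjusted p, 17 by DESeq2 at an unadjusted p, 0 at an adjusted p of at most 0.05, 0 without t32 and t33, 2 without the 3 libraries, and 0 to 3 without 1 library (0 without t31, t32, t34, t37 or t43, 2 without t40 or t49 and 3 without t53). For T2 against T0 (1 call) it was 0 with every species, 8 at an unadjusted p, 18 by DESeq2 at an unadjusted p, 0 at an adjusted p of at most 0.05, 0 without the 3 libraries, and 0 to 3 without 1 library (0 without t31, t33, t34, t36, t37, t43, t45, t49 or t51 and 3 without t44). For T2 against T1 (0 calls) it was 8 at an unadjusted p by edgeR, 16 by DESeq2, and 0 to 0 without 1 library. Without the 3 libraries miR-1a-1-5p (1.43) and miR-1a-2-5p (1.81) turned from lower to higher. The library measures changed sign in places: T1 alone gave 1.63 more entries with a count and −0.27 percentage points on the usual arm, and leaving out 1 library gave −0.0951 to 0.0478 for log10 total, −19.8 to 2.10 for entries with a count, 1.53 to 3.93 points for the share of the 5 most abundant and −0.0913 to 0.362 points for the usual arm. The cause was not tested. Alternatives without t32 and t33, without the 3 libraries, and DESeq2 at an unadjusted p were chosen after seeing the data. Scaling by library totals moved the median of all entries from 0.09 to −0.01. No paired analysis was made because the labels do not name the turtle. Library titles run T0, T1, T2 in turn, but pairing by that order was not used. Leaving out 1 library does not show what leaving out 1 turtle would do. Depth limits low entries, above all in t39.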

Other observations

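Neural families gave the highest list median, 1.22 on the log2 scale. Of 33 entries 8 were tested, 8 were above 0 and none had an unadjusted p of at most 0.05. At the single times the list median was 0.32 at T1 and 0.98 at T2. Summed over the list, however, the median level was 1611, 2021 and 1543 CPM at T0, T1 and T2. These sums lay above the T0 median in 5 of 8 libraries at T1 and 3 of 8 at T2. Among the tested entries, miR-9-4-3p stood at 5830.0 CPM in t39, a T2 library whose total was the lowest of all. How far the values of the miR-9 entries rest on t39 was not tested. miR-9-4-3p gave −0.09 at T1 and 2.09 at T2.

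The gonads were removed, and miR-202, the family rich in vertebrate gonads, was close to the limit of detection at each time, with 15, 23 and 31 counts at T0, T1 and T2. It had no count in 3, 5 and 4 of the 8 libraries of these times, and neither of its 2 entries was tested.

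Of all 528 cpi entries, 18, each with few counts, had no count in any T0 library and at least 1 after surgery. The most widespread of these, miR-9582-5p, had 14 counts over 5 of 16 postoperative libraries. In the other direction, 10 entries had counts only at T0, in at most 3 of 8 libraries.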
